A study of Rapana venosa with 9 samples.

Results

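The genes described here are 47 predicted miRNA target genes of the veined rapa whelk, *Rapana venosa*, whose messages were abundant in postlarvae (PL) and far lower in precompetent larvae (Pre-CL). They were selected on 2 values of the authors' table of miRNA-target pairs, which gives a mean FPKM (sequenced fragments scaled to gene length and depth) for each gene and stage. A gene was chosen if it had at least 50 FPKM in PL and if its PL value was at least 20 times its Pre-CL value plus 0.1 FPKM. Of the 11401 genes in the table, 49 met this rule, and 2 of them were left out by name, a beta-1,4-xylanase and a membrane metallo-endopeptidase-like gene. The PL and Pre-CL levels therefore define the set and are given as a description without a test. The competent larval (CL) level was not used by the rule.

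Small RNA was sequenced from 9 libraries, 3 each from Pre-CL with 3 spiral whorls, CL with 4 spiral whorls, and PL, which are juveniles that have completed metamorphosis. No treatment or genotype was compared: the animals descended from wild-caught parents and were raised as planktonic larvae on a mixture of 3 microalgae. Each replicate was described as 40 to 100 animals, whereas the RNA extraction was described for the intestine of one individual, so the material behind a library is not settled. The replicates were described as biological, but whether they came from separate cultures is not stated, so p-values measure the spread between these libraries, which may be technical. The FPKM come from an earlier transcriptome of the same stages and are 1 mean per stage, so no gene level has a replicate error. In such bulk RNA, more cells of a type and more RNA per cell cannot be told apart.

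In gastropods, metamorphosis turns a swimming, ciliated larva that filters algae into a crawling juvenile, and in the rapa whelk the juvenile becomes a predator of other molluscs. The ciliated velum is lost, the foot and the secondary shell grow, and the gut and its secreted enzymes are rebuilt. A miRNA guides silencing proteins to a messenger RNA mainly through its seed, bases 2 to 8 from the 5′ end, so miRNAs with the same seed are predicted to bind largely the same messages.

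The 47 genes carried 98 pairs with 35 miRNAs, 18 of them known and 17 predicted by the authors. The 14 miRNAs paired most often are shown because most of the pairs turn on them. Of 6 miRNAs tied at 3 genes each, miR-303-y, which had 7 counts in all, is left out. They are given 5′ to 3′ as in the deposited table, with the seed in capitals. Predicted miRNAs are named by the authors' number, without its prefix. The first 4 share one seed and the next 3 share another, while the remaining 7 have a seed each.
miR-216-x: tAATCTCAgctggtaattctg
miR-283-x: tAATCTCAgctggtaattctggga
miR-747-x: tAATCTCAtctggtaattcta
miR-5307-x: tAATCTCAgctggtatctctg
miR-263-x: aATGGCACtggtagaattcacggg
miR-183-x: aATGGCACtggtagaattcacggg
miR-228-x: aATGGCACtggttgaattcacgga
miR-71-x: tGAAAGACatgggtagtgagatc
miR-92-x: gGGTCGTGacttgtgcaaatt
m0020-5p: tTGGTTCTgatagggcagctgc
m0073-3p: tCAACAGAaatggcggacccggt
m0132-3p: cTGTGGTTctggtgcttacta
m0084-3p: cAAAGTATtttgggtagctgatg
miR-4686-x: tATCTGATgggcttgctgg
The references of miR-263-x and miR-183-x are the same sequence, and miR-216-x is the first 21 bases of miR-283-x. miR-747-x and miR-5307-x each differ from miR-216-x at 2 bases, and miR-228-x differs from miR-263-x at 2 bases. The authors counted reads on these references with up to 2 mismatches, so the counts within a seed family are not independent.

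The 47 genes spanned a wide range of abundance in PL, between 50.5 and 2151 FPKM with a median of 136 FPKM. The Pre-CL median was 0.617 FPKM. In Pre-CL, 5 genes were listed at 0 and 26 were under 1 FPKM, but 6 genes were at or above the median of all genes in the table (4.40 FPKM), up to 42.1 FPKM for c99898_g1. The ratio of PL to Pre-CL plus 0.1 FPKM, which the rule set at 20 or more, had a median of 192 and reached 7849. Among all genes of the table, 1.81% passed that ratio, 21.8% had a PL value of at least 2 times the Pre-CL value plus 0.1 FPKM, and 32.5% had the converse, so genes of this kind were rare in a table in which lower genes outnumbered higher ones. Of the 154 cilia genes of the table, 17 were at least 2-fold higher in PL and 81 at least 2-fold lower.

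The genes at the edges of the rule did not stand apart from their neighbours. The members with the lowest PL levels were c140109_g1 at 50.5 FPKM, c148424_g1 at 53.9 FPKM and c154234_g1 at 55.9 FPKM. The genes that missed this limit by least were c147010_g1 at 49.96 FPKM, c147318_g1 at 49.3 FPKM and c138394_g1 at 48.4 FPKM. At the limit of 20-fold, the members with the lowest ratios were c150917_g1 at 21.6, c146114_g2 at 22.6 and c143523_g1 at 22.6. Just outside were c42867_g1 at 19.9, c128631_g1 at 18.3 and c94651_g1 at 18.2.

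**Figure D1:**
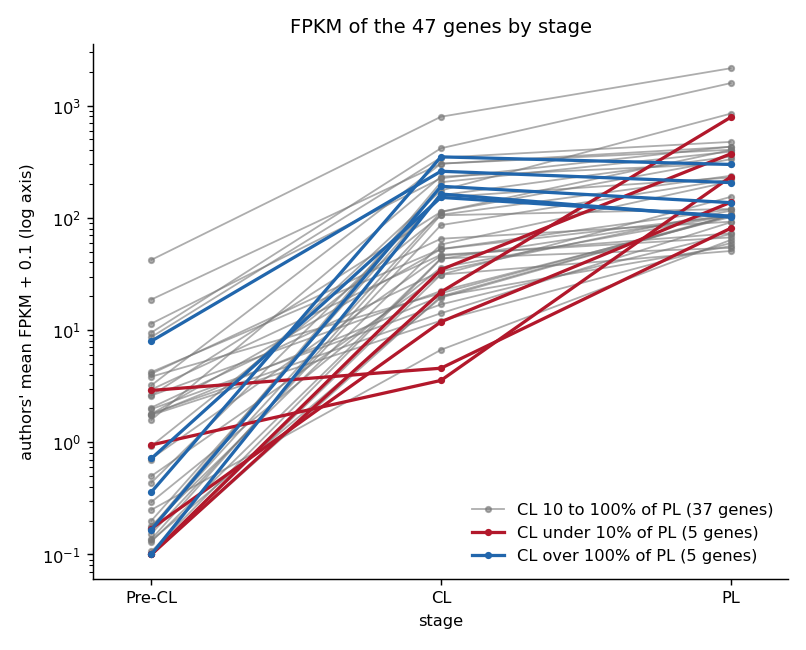
Authors' mean FPKM plus 0.1 (log axis) of the 47 genes in Pre-CL, CL and PL, 1 line per gene and no replicates. Red lines are the 5 genes whose CL level was under 10% of the PL level, blue lines the 5 genes whose CL level was above the PL level, and grey lines the other 37; every gene lies higher in CL than in Pre-CL.

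In competent larvae, before metamorphosis, these genes stood well above their precompetent level. All 47 had a higher FPKM in CL than in Pre-CL, as did 60.6% of all genes, with a CL median of 52.6 FPKM and a range of 3.46 to 796 FPKM. In CL, 25 genes (53.2%) already had at least 50 FPKM, against 6.25% of all genes. That difference follows in part from the rule's limit of 50 FPKM in PL. The 541 other genes past that limit had a CL median of 108 FPKM, above that of the members. Likewise 32 (68.1%) were already at least 20 times their Pre-CL level plus 0.1 FPKM, against 2.47% of all genes, which follows in part from a rule that asks for a low Pre-CL level. With 10% of the PL level as the limit for being on, 42 of 47 were on at competence, against 93.9% of all genes in the table, so the share itself was near the background. The CL level was 39.1% of the PL level at the median (1.50% to 161%), against a median of 150% over all genes and of 108% over the 541 other genes with at least 50 FPKM in PL. The rule requires a high PL level, so a low ratio of CL to PL follows in part from it. Among the 157 genes past the same fold but under 50 FPKM in PL, the median was 46.98%.

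Only 5 genes stayed under 10% of their PL level in CL, and 4 of them had no named protein match. The gene c144047_g1 had 0.847 FPKM in Pre-CL, 3.46 FPKM in CL and 231 FPKM in PL, so its CL level was 1.50% of PL. The gene c66116_g1 was listed at 0 in Pre-CL and had 21.7 FPKM in CL and 785 FPKM in PL, the fourth highest PL level of the set. The gene c133225_g1 was likewise listed at 0 in Pre-CL, with 34.4 FPKM in CL and 371 FPKM in PL. These genes thus gained most of their level only after competence. The gene c150705_g1, with a domain named for a fly eggshell protein, had 0.07 FPKM in Pre-CL, 11.7 FPKM in CL and 137 FPKM in PL. The annotated one was c157141_g5, an animal haem peroxidase whose best match is Peroxidase-like protein 3 of the limpet *Lottia gigantea*, with 2.80 FPKM in Pre-CL, 4.47 FPKM in CL and 80.5 FPKM in PL. Haem peroxidases oxidise their substrates with hydrogen peroxide.

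At the other end, 5 genes were higher in CL than in PL, and 2 of these matched cone snail venom proteins. The gene c147316_g1, a cysteine-rich venom protein, was listed at 0 in Pre-CL and had 163 FPKM in CL and 101 FPKM in PL. The gene c117217_g1, which matched conotoxin Cl14.12, had 0.617 FPKM in Pre-CL, 152 FPKM in CL and 103 FPKM in PL. The other three were c133864_g1, with 0.260, 349 and 299 FPKM in the 3 stages in the same order, c125711_g2, with 7.86, 260 and 206 FPKM, and c137361_g1, with 0.0667, 191 and 136 FPKM. Between these extremes, 10 genes had a CL level of 10 to 25% of PL, 13 of 25 to 50% and 14 of 50 to 100%. A CL level above the PL level occurred in 10.6% of the 47 genes and in 74.3% of all genes.

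**Figure D2:**
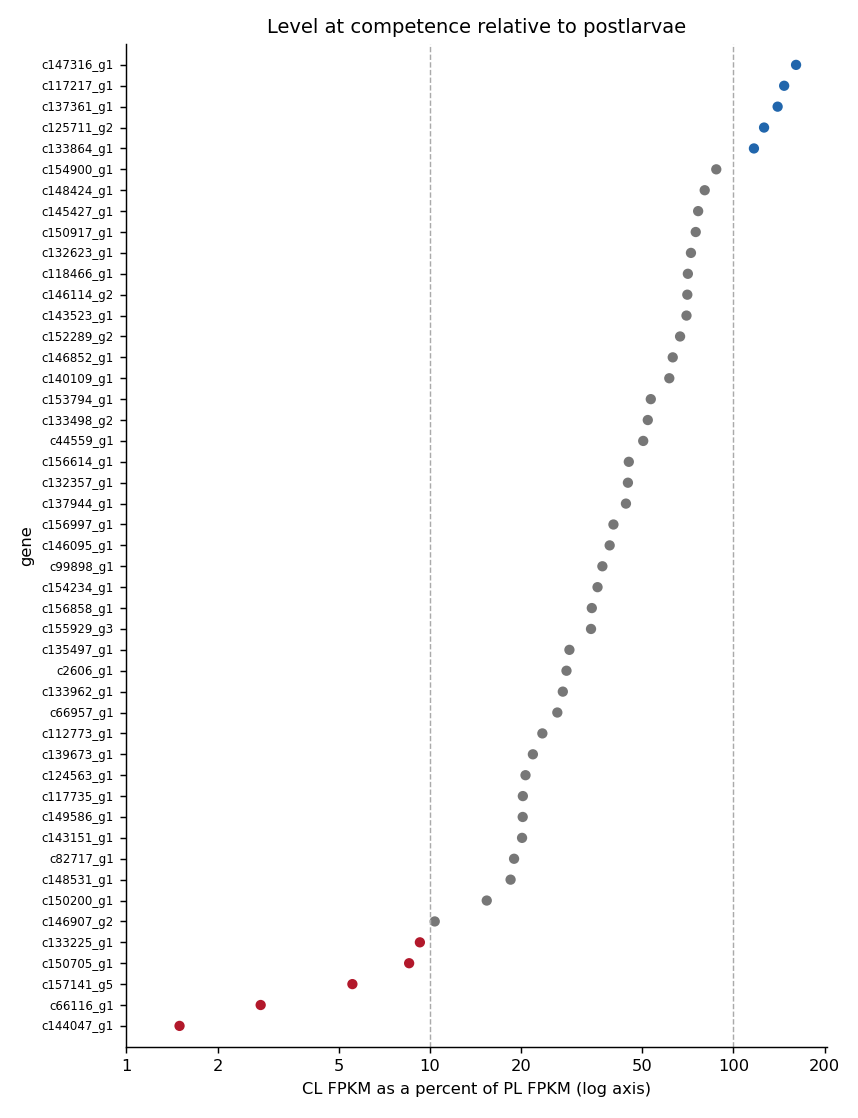
CL FPKM as a percent of PL FPKM (log axis) for each of the 47 genes, sorted, with dashed lines at 10% and 100%. The points run between 1.50% for c144047_g1 and 161% for c147316_g1, with 5 genes left of the 10% line and 5 right of the 100% line.

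The annotated members included extracellular enzymes, chitin-binding proteins, lectins and thioester proteins, and venom-type proteins. A match in the NR protein database was given for 22 of 47 genes (46.8%), against 42.2% of all genes in the table and 69.3% of the other genes with at least 50 FPKM in PL. The best matches came most often from the oyster *Crassostrea gigas* (5 genes), the sea hare *Aplysia californica* (4) and *L. gigantea* (4). *C. gigas* made up 22.7% of the members' matches, against 15.96% over all genes and 8.27% over those other genes past 50 FPKM. For *A. californica* these shares were 18.2%, 39.2% and 40.0% in the same order, and for *L. gigantea* 18.2%, 25.5% and 16.8%. The member shares rest on few genes and were not compared by a test. Whether any of these transcripts come from prey was not tested. Keyword groups placed 6 of the 405 genes for proteolysis and digestion in the set, 4 of 216 for shell and extracellular matrix, 4 of 104 for lectins and immunity, 3 of 155 for toxin and secreted proteins and 4 of 733 for ion channel and neural genes, some genes falling into more than one group. These shares were 1.48%, 1.85%, 3.85%, 1.94% and 0.546%, beside 0.412% of all genes. The last group was entered through the keyword receptor, and none of its 4 members was named as a channel. No member was among the 140 muscle and cytoskeleton, 154 cilia, 15 oxygen- and metal-binding and 155 ribosomal genes, and counts of 0 are near that background in groups of this size. At the 20-fold level, 20 proteolysis genes were higher in PL and 41 lower, and 8 lectin and immune genes were higher and 19 lower. Among all 11401 genes of the table, 206 were higher and 659 lower at that level. Lower genes thus outnumbered higher ones in both groups, though less one-sidedly than in the whole table.

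The proteolysis group held an astacin, an ADAMTS-like enzyme, the Tex31-type venom proteins described further on, and genes known by a single domain. Astacins are secreted zinc proteinases that act in digestion and in the processing of matrix proteins. The astacin c156614_g1 had 0.1 FPKM in Pre-CL, 159 FPKM in CL and 351 FPKM in PL. The gene c133962_g1 encodes a reprolysin-type metalloproteinase matched to oyster ADAMTS2, an enzyme that trims procollagen in mammals, and had 0.08 FPKM in Pre-CL, 57.7 FPKM in CL and 211 FPKM in PL. Both were off at the precompetent stage and on, though below their final level, at competence. The gene c148531_g1, known only by a PLAC (protease and lacunin) domain, followed with 0.0333, 19.3 and 105 FPKM in the 3 stages. The most abundant gene of the whole set, c99898_g1, entered this group by a colipase domain alone. Colipase is the cofactor of pancreatic lipase in vertebrates. The gene c99898_g1 had 42.1 FPKM in Pre-CL, 796 FPKM in CL and 2151 FPKM in PL, and matched an uncharacterised protein of *L. gigantea*. Its other domain names were late nodulin protein, spider insecticidal peptide and B-cell receptor-associated protein 31-like, so its function is not settled.

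The chitin-binding genes formed the core of the matrix group. Peritrophin-type chitin-binding domains occur in the lining of the arthropod gut and in mollusc shell proteins. That type was listed for c156858_g1 and c154234_g1, while c155929_g3 was listed with a chitin-binding domain not named as peritrophin-type. The gene c155929_g3 had 0.0733 FPKM in Pre-CL, 113 FPKM in CL and 332 FPKM in PL. The gene c156858_g1, which adds EGF-like domains, had 0.193 FPKM in Pre-CL, 36.0 FPKM in CL and 105 FPKM in PL. The gene c154234_g1 had 1.66 FPKM in Pre-CL, 19.9 FPKM in CL and 55.9 FPKM in PL. All 3 stood at a like share of their PL level in CL, between 33.95% and 35.7%. Of all 34 genes with a chitin-binding domain of either kind, 13 were at least 2-fold higher in PL and 13 at least 2-fold lower. Over all genes of the table these shares were 21.8% and 32.5%.

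The immune-type genes were a lectin, a C1q-like gene and 2 thioester proteins. The lectin c117735_g1, with a C-type lectin domain, matched collectin-12 in NR and versican core protein in the Swissprot database. Collectin-12 is a scavenger receptor that binds microbial sugars. The lectin gene had 0.4 FPKM in Pre-CL, 31.1 FPKM in CL and 153 FPKM in PL. In NR, c135497_g1 matched a C1q-like protein, of a family that recognises microbes in molluscs. Its Swissprot match was Caprin-2, and no C1q domain was listed for it. It had 1.94 FPKM in Pre-CL, 33.4 FPKM in CL and 116 FPKM in PL. Thioester proteins of the alpha-macroglobulin family trap proteinases or tag microbes. Of these, c153794_g1 had 0.0733 FPKM in Pre-CL, 208 FPKM in CL and 389 FPKM in PL, and c156997_g1, matched to scallop thioester-containing protein B, had 0.00667 FPKM in Pre-CL, 43.0 FPKM in CL and 107 FPKM in PL. These 4 genes were at 20.2% to 53.4% of their PL level at competence.

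Other annotated members were receptors, intracellular enzymes and a nuclease. The gene c124563_g1, with a low-density lipoprotein (LDL) receptor class A domain, had 0.6 FPKM in Pre-CL, 175 FPKM in CL and 847 FPKM in PL. The second LDL receptor-related match, c132623_g1, had 8.56 FPKM in Pre-CL, 344 FPKM in CL and 475 FPKM in PL. The gene c146095_g1, a deoxyribonuclease-1, which cuts DNA outside cells, had 0.0533 FPKM in Pre-CL, 86.1 FPKM in CL and 220 FPKM in PL. The gene c66957_g1 was the only one in the table annotated as the decapping enzyme Dcp2, which removes the cap of a messenger RNA before its decay. It had 9.40 FPKM in Pre-CL, 417 FPKM in CL and 1585 FPKM in PL, the second highest PL level of the set. The short-chain dehydrogenase c143523_g1 had 2.85, 46.8 and 66.8 FPKM in the 3 stages. The ependymin gene c140109_g1, of a family of secreted glycoproteins first found in fish brain, was listed at 0 in Pre-CL and had 31.1 FPKM in CL and 50.5 FPKM in PL.

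Many genes that share an annotation with a member were lower, not higher, in PL. These annotations were picked after the values were seen, and the counts are a description. Over all genes of the table, 21.8% were at least 2-fold higher in PL and 32.5% at least 2-fold lower. Of 22 ependymin genes, c140109_g1 was the one that passed 20-fold upward, while 18 were at least 2-fold lower in PL, 13 of them at least 20-fold. Of 12 genes with a C1q match, 2 were at least 2-fold higher in PL and 9 at least 2-fold lower. The astacin c156614_g1 carries the same component number in the transcript assembly as 4 other genes in the table, of which 2 ran in the opposite direction: c156614_g2 had 284 FPKM in Pre-CL, 48.9 FPKM in CL and 3.02 FPKM in PL, and c156614_g4 had 329 FPKM in Pre-CL, 56.7 FPKM in CL and 0.573 FPKM in PL. The others were highest in CL, with 9.77, 33.3 and 13.6 FPKM in the 3 stages for c156614_g5 and 19.8, 85.0 and 39.0 FPKM for c156614_g6. Of all 13 astacin-domain genes, 4 were at least 2-fold higher in PL and 7 at least 2-fold lower. The table held 2 genes matched to conotoxin Cl14.12. Where c117217_g1 came on, the other, c124801_g1, had 9144 FPKM in Pre-CL, 2226 FPKM in CL and 0.133 FPKM in PL. How the authors assigned fragments shared by such related transcripts was not given in the sources used here. The alpha-macroglobulin genes were less one-sided, with 4 of 8 at least 2-fold higher in PL and 3 at least 2-fold lower.

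**Figure D3:**
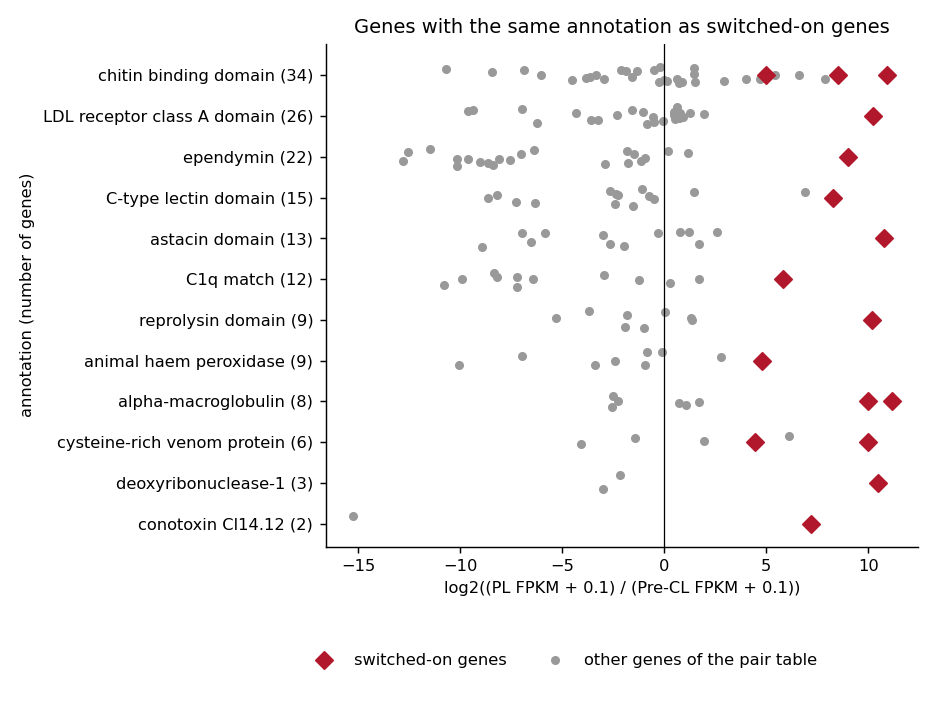
Log2 ratio of PL to Pre-CL FPKM, 0.1 added to both, for genes of the pair table that share an annotation with a member (red diamonds, switched-on genes; grey points, other genes; number of genes in brackets). Members lie far right by the rule that chose them, while 13 of 22 ependymin genes and the second conotoxin Cl14.12 gene lie at least 20-fold to the left.

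All 3 venom-type genes were already on at competence. The second cysteine-rich venom protein, c150917_g1, had 18.6 FPKM in Pre-CL, 304 FPKM in CL and 404 FPKM in PL. Like c147316_g1, it matched Tex31, a cone snail endoprotease, and belongs to a protein family that is also expressed outside venom glands. Of the 6 cysteine-rich venom or secretory protein genes in the table, 4 were at least 2-fold higher in PL and 2 at least 2-fold lower. In CL, c150917_g1 had reached 75.1% of its PL level.

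The 17 genes without an NR, Swissprot or Pfam entry (36.2% of the set, against 44.3% of all genes) were not minor members. Their PL levels were between 59.5 and 785 FPKM with a median of 119 FPKM. Besides those described above, c145427_g1 had 1.48 FPKM in Pre-CL, 233 FPKM in CL and 304 FPKM in PL. The gene c152289_g2 had 0.337 FPKM in Pre-CL, 152 FPKM in CL and 228 FPKM in PL, and c154900_g1 had 0.827 FPKM in Pre-CL, 105 FPKM in CL and 120 FPKM in PL. At competence these 3 were at 66.7% to 87.8% of their PL level, although the median of the 17 genes was 23.5%. The unannotated transcripts were short, with a median of 789 bases against 1116 bases for all members and 1427 bases for the whole table.

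Some members carry only names that say little. For 7 genes Pfam domains were the sole annotation, among them c148531_g1 and c154234_g1 described above. Domains named for viral proteins were listed for c133498_g2 and c148424_g1. The gene c133498_g2, with a bluetongue virus and a Nop14-like domain name, had 11.3 FPKM in Pre-CL, 225 FPKM in CL and 431 FPKM in PL. The gene c118466_g1, with a fumarate reductase domain name, had 3.12 FPKM in Pre-CL, 304 FPKM in CL and 429 FPKM in PL. The gene c132357_g1 matched an uncharacterised *A. californica* protein and had 0.0367 FPKM in Pre-CL, 106 FPKM in CL and 237 FPKM in PL. The gene c2606_g1, with 2.52 FPKM in Pre-CL, 113 FPKM in CL and 401 FPKM in PL, had its best match in the diatom *Phaeodactylum tricornutum*. The larvae were fed microalgae, and whether this transcript is the whelk's own was not tested.

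Pairs between miRNAs and genes were predicted by the authors and kept only where the stage means ran in opposite directions, with a rho of -1 in 79 of the 98 pairs and of -0.87 in 19. The partners were also taken only from miRNAs that the authors had found differentially expressed. That the partners of these genes were lower in PL is therefore largely a product of this selection. The pairs were unevenly spread over miRNAs. Most members had a single pair (26 of 47, 55.3%, against 42.4% of all genes), and c143151_g1 had the most, with 7. The miRNAs with the most members were miR-747-x and miR-5307-x with 8 each, miR-216-x and miR-283-x with 7 each, and m0084-3p with 6. They also had many targets in the table as a whole, with 331, 511, 300, 291 and 389 genes in the same order, so that members made up 1.54% to 2.42% of their targets. For miR-92-x the 3 members were 6.0% of only 50 targets, and for m0020-5p the 4 members were 3.88% of 103. Members were 0.412% of all genes in the table.

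**Figure D4:**
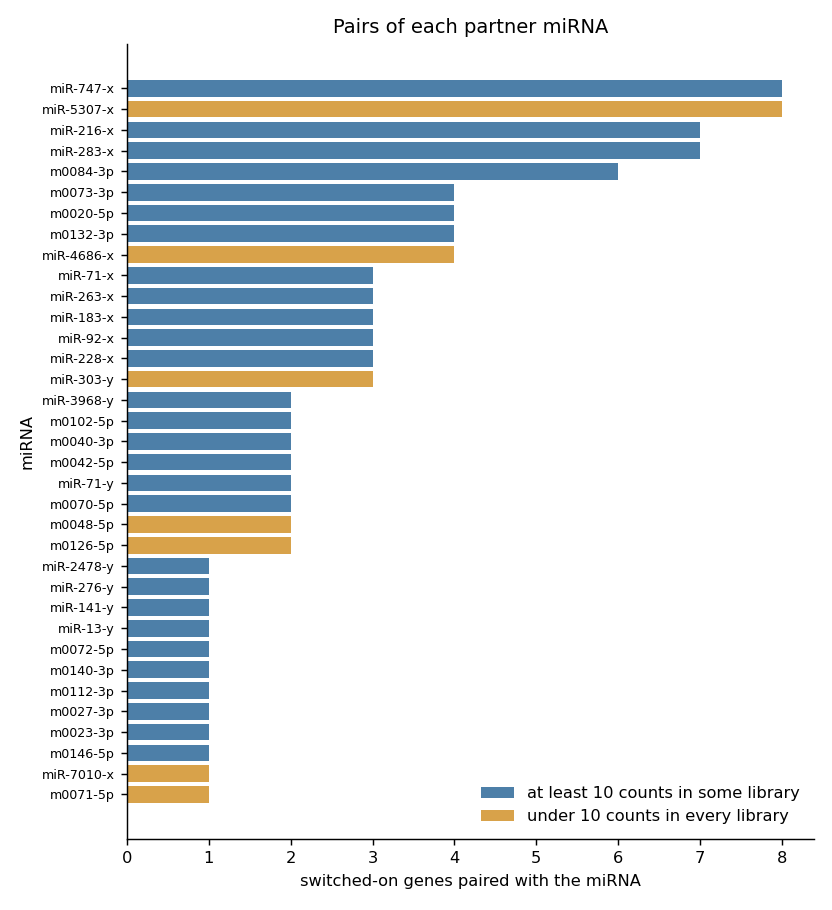
Number of switched-on genes paired with each of the 35 partner miRNAs. Blue bars are miRNAs with at least 10 counts in some library and orange bars the 7 miRNAs under 10 counts in every library; miR-5307-x has 8 pairs on 6 counts in all.

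A single seed family carried 30 of the 98 pairs, all to the same 8 genes. These were the lectin c117735_g1, the ADAMTS2-like c133962_g1, the thioester protein c156997_g1, the deoxyribonuclease c146095_g1, and c118466_g1, c143151_g1, c152289_g2 and c66116_g1. The table held 579 target genes of this family. The 30 pairs are thus predictions for 8 genes made with closely similar sequences.

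The family was led by miR-216-x, which was lower at each later stage. The TMM-normalized CPM (counts scaled to library size) of miR-216-x were 49017, 46969 and 51826 in Pre-CL, 24825, 32314 and 27910 in CL, and 6619, 5834 and 9127 in PL, with no overlap between stages. PL were lower than Pre-CL by a log2 fold change of -2.78 (SE 0.21, edgeR adjusted p = 2.1e-05) and lower than CL by -1.98 (adjusted p = 0.00012). CL against Pre-CL gave -0.80 (adjusted p = 0.019), under the 2-fold limit for a call. The longer miR-283-x had 655, 637 and 308 CPM in Pre-CL, 164, 166 and 144 CPM in CL, and 31.2, 32.8 and 41.9 CPM in PL. Its log2 fold change was -3.91 in PL against Pre-CL (SE 0.34, edgeR adjusted p = 3.6e-05), -2.16 in PL against CL and -1.75 in CL against Pre-CL, and all 3 were called.

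The other 2 members of the family were rare. miR-747-x had 8.42, 6.91 and 11.6 CPM in Pre-CL, 2.51, 1.89 and 1.13 CPM in CL, and 0.400, 1.06 and 1.11 CPM in PL. It was lower in PL than in Pre-CL by -3.32 (SE 0.50, edgeR adjusted p = 0.00070), while PL against CL gave -1.07 and was not called (adjusted p = 0.11). Its counts amounted to 0.00404% to 0.0223% of those of miR-216-x in the same library, and the part of reads with mismatches in them was not tested. miR-5307-x had 2 counts in each Pre-CL library and 0 in every CL and PL library, which is within the 3 counts that a count of 0 allows (0.399 to 0.694 CPM by library, counting error only). It did not pass the count filter, so its 8 pairs rest on 6 counts in all and on a change that the main test did not cover.

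The second seed family, miR-263-x, miR-183-x and miR-228-x, was far lower in PL than in either larval stage. It had 9 pairs with 3 genes: the Dcp2 gene c66957_g1, c143151_g1 and c139673_g1, an uncharacterised gene with 2.51 FPKM in Pre-CL, 22.2 FPKM in CL and 102 FPKM in PL. miR-263-x had 66016, 58098 and 72686 CPM in Pre-CL, 43560, 43278 and 51977 CPM in CL, and only 433, 308 and 449 CPM in PL. PL were lower than CL by a log2 fold change of -6.87 (SE 0.25, edgeR adjusted p = 1.2e-07) and lower than Pre-CL by -7.37 (SE 0.25, adjusted p = 7.5e-08), whereas CL against Pre-CL gave -0.50 and was not called (adjusted p = 0.097). The sequence-identical miR-183-x had 58614, 48509 and 69854 CPM in Pre-CL, 41129, 43999 and 50056 CPM in CL, and 322, 238 and 387 CPM in PL, so the pair is a single observation.

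At competence the genes of this family were already higher. In CL, where miR-263-x was not called lower, c66957_g1 had already reached 417 FPKM against 9.40 FPKM in Pre-CL, and c139673_g1 had 22.2 FPKM against 2.51 FPKM in Pre-CL. The CL and Pre-CL libraries of miR-263-x did not overlap, while those of miR-183-x did. Outside this family, the partners of c66957_g1 were m0073-3p and m0020-5p. Both were called lower in CL than in Pre-CL (log2 fold changes -1.86 and -1.19), though not in every setting. Whether gene and miRNA differ in timing was not tested. miR-228-x had 3.55, 2.25 and 6.48 CPM in Pre-CL, 2.51, 2.46 and 3.16 CPM in CL, and 0 counts in all PL libraries. That is at least 8.33-fold lower in PL than in Pre-CL and at least 5.51-fold lower than in CL, against the floor of 3 counts per library.

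miR-71-x and miR-92-x were also called lower in PL and not in CL. miR-71-x, the most abundant partner, was paired with the LDL receptor-type gene c124563_g1, the dehydrogenase c143523_g1 and c139673_g1. It had 144626, 110997 and 163932 CPM in Pre-CL, 99143, 117054 and 111797 CPM in CL, and 42942, 33265 and 36628 CPM in PL, and its log2 fold change was -1.89 in PL against Pre-CL (SE 0.19, edgeR adjusted p = 0.00010) and -1.54 in PL against CL (adjusted p = 0.00038). With total miRNA counts as library size the PL against CL value was -0.95 and under the limit for a call. Its Pre-CL and CL libraries overlapped. miR-92-x was paired with the ependymin gene c140109_g1, with c2606_g1 and with c137944_g1, an unannotated gene with 4.12 FPKM in Pre-CL, 52.6 FPKM in CL and 119 FPKM in PL. It had 70.5, 49.2 and 120 CPM in Pre-CL, 56.0, 75.3 and 52.5 CPM in CL, and 2.60, 1.86 and 3.48 CPM in PL. The log2 fold change was -4.91 in PL against Pre-CL (SE 0.46, edgeR adjusted p = 5.2e-05) and -4.53 in PL against CL. CL against Pre-CL was not called and changed sign without the third Pre-CL library, where it was 0.03.

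The predicted miRNAs m0020-5p, m0073-3p and m0132-3p had 4 members each. m0073-3p was paired with c66957_g1, c133225_g1, c146095_g1 and c140109_g1, and had 29.9, 26.7 and 54.8 CPM in Pre-CL, 9.31, 9.64 and 11.7 CPM in CL, and 1.0, 1.59 and 2.85 CPM in PL. It fell in both steps, by -2.47 in PL against CL (edgeR adjusted p = 0.0025) and by -1.86 in CL against Pre-CL (adjusted p = 0.017). The CL call was lost without the second CL library, with a log2 fold change of -1.82. m0020-5p was paired with c66957_g1, the venom-type c150917_g1, the peroxidase c157141_g5 and c146852_g1, and had 39.7, 32.0 and 44.2 CPM in Pre-CL, 14.6, 14.2 and 22.1 CPM in CL, and 8.21, 5.58 and 10.4 CPM in PL. It was lower in PL than in Pre-CL by -2.25 (SE 0.36, edgeR adjusted p = 0.00094). Its calls of -1.07 in PL against CL and -1.19 in CL against Pre-CL were each lost in at least 7 of 14 alternative settings. m0132-3p was paired with c133498_g2, the C1q-like c135497_g1, c149586_g1 and c44559_g1. It had 39.5, 32.9 and 42.8 CPM in Pre-CL, 27.1, 37.8 and 32.2 CPM in CL, and 9.41, 7.58 and 6.81 CPM in PL, with a log2 fold change of -2.03 in PL against CL (edgeR adjusted p = 0.00076), while CL against Pre-CL was not called (adjusted p = 0.58).

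The remaining 2 frequent partners had too few counts to pass the filter of the main test. m0084-3p was paired with 6 genes, among them the chitin-binding c155929_g3, c150705_g1, c148531_g1 and c2606_g1, on 22 counts in all. It had 6, 11 and 3 counts in Pre-CL, 0, 2 and 0 in CL, and 0 in every PL library. miR-4686-x, paired with the venom-type genes c147316_g1 and c117217_g1, which were higher in CL than in PL, and with c132357_g1 and c148424_g1, had 4, 2 and 7 counts in Pre-CL and 0 in every CL and PL library. In all, 7 partners stayed under 10 counts in every library and carried 21 of the 98 pairs, and for 8 genes no other partner was listed.

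**Figure D5:**
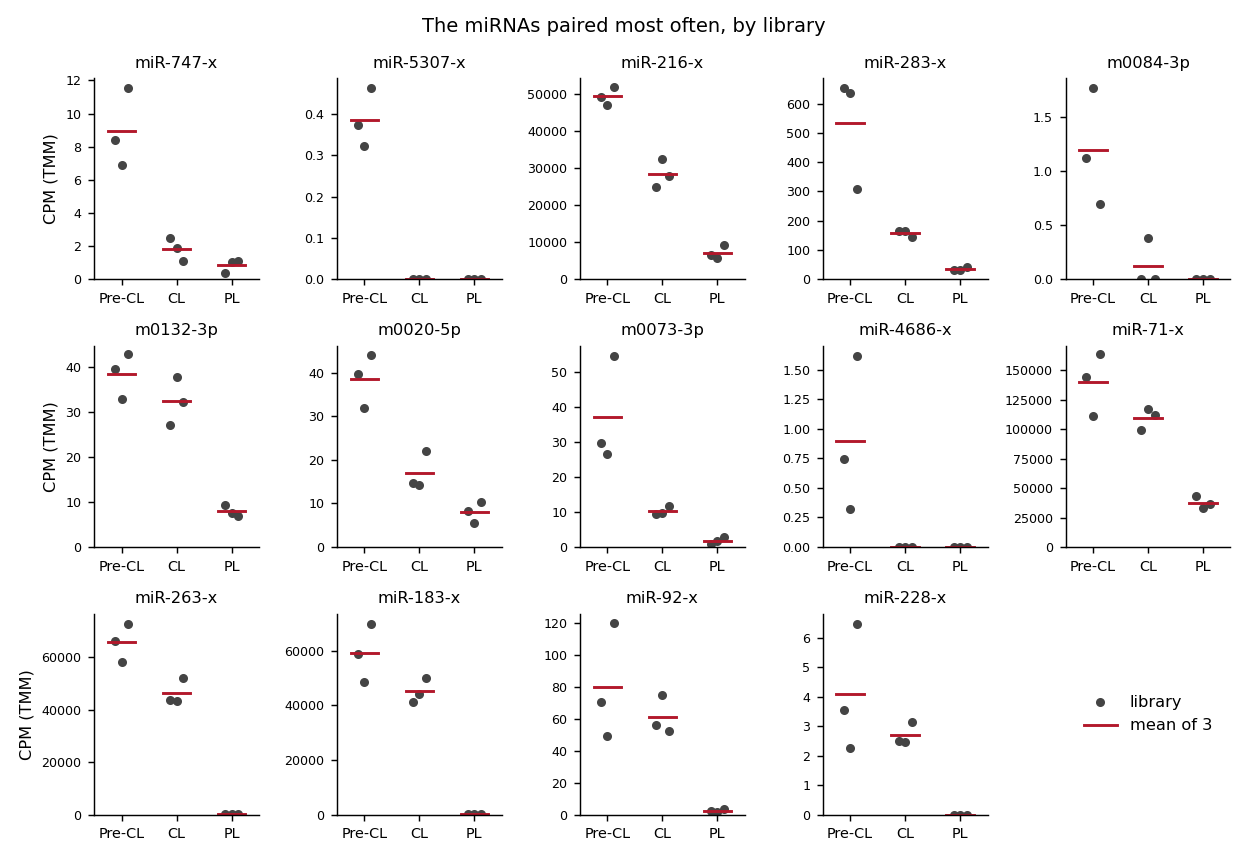
TMM-normalized CPM of the 14 miRNAs paired most often, in the 9 libraries by stage, each panel on its own axis beginning at 0 (points, libraries; red bars, mean of 3). miR-263-x and miR-183-x keep most of their level in CL and stand at no more than 449 CPM in every PL library, whereas miR-747-x and miR-283-x are already lower in CL.

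Over all partners, 25 of 35 had enough counts for the test. In PL against Pre-CL, 23 of the 25 were called lower and 0 higher, against 22% called lower among the 214 miRNAs tested, and their libraries did not overlap. The 23 cover 67 pairs and 31 of the 47 genes. In PL against CL, 16 were called lower, against 14.5% of all tested, and 1 higher, against 22.4%. In CL against Pre-CL, 10 were called lower, against 9.35%, and 15 were not called. Among the partners, miR-263-x and miR-183-x are identical in sequence, as are m0112-3p and m0140-3p. With identical references taken once, 21 were called lower in PL against Pre-CL, 14 in PL against CL and 10 in CL against Pre-CL. The 195 miRNAs of the pair table were taken by the authors for differing between stages, and the pairs were kept for running inversely. For genes that are higher in PL, that choice largely fixes a lower partner, so these counts are not a separate result. The shares over all 214 tested miRNAs carry no such selection and are only a description. The numbers called at the 2 steps were not compared by a test. The CL count was 6 without the second CL library. With total miRNA counts as library size the log2 fold changes of PL against Pre-CL were higher by 0.61 and those of PL against CL by 0.58, with 10 partners in place of 16 called lower in PL against CL, as many as the 10 called lower in CL against Pre-CL under that scaling, and 2 in place of 1 called higher.

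Of the partners, only miR-276-y, miR-141-y and miR-13-y had a mean level in CL below that of both other stages. miR-276-y had 18.0, 90.8 and 30.5 CPM in Pre-CL, 0.444, 0 and 0 CPM in CL, and 18.6, 35.9 and 26.9 CPM in PL, and was called higher in PL than in CL (log2 fold change 7.12, edgeR adjusted p = 0.00082). Its pair was c137361_g1, one of the 5 genes that were higher in CL than in PL. The partners of these 5 genes were miR-276-y, miR-141-y, miR-13-y, miR-4686-x and 3 predicted miRNAs, in 8 pairs, and none of them belonged to either seed family above. Because only inversely running pairs were kept, genes highest in CL largely take partners that are low in CL. The absence of both families therefore follows largely from that choice and is not a separate result. miR-141-y, the partner of c125711_g2, had 21.5, 44.2 and 8.33 CPM in Pre-CL, 8.87, 8.32 and 10.6 CPM in CL, and 17.8, 14.8 and 19.2 CPM in PL, and was not called in any comparison. miR-13-y, a partner of c133864_g1, had 22.8, 21.2 and 9.25 CPM in Pre-CL, 3.70, 3.59 and 3.61 CPM in CL, and 7.01, 8.37 and 5.54 CPM in PL. Its log2 fold change in PL against CL was 0.94 and was not called (edgeR adjusted p = 0.092), although the libraries did not overlap.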

How the data were processed

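Small RNA was measured in 9 libraries. The authors deposited raw tag counts on 918 miRNA references per library, without normalization, after removing rRNA, tRNA, snRNA and snoRNA tags and aligning to miRBase with up to 2 mismatches; further miRNAs were predicted with MIREAP. The deposited pair table gives the authors' mean FPKM of each stage, a rho score (their correlation over the 3 stage means), gene length and annotation. Its log2 fold changes and p-values of the authors' own comparisons were not used. The transcript assembly and gene quantification were not given in detail in the sources used here. Libraries held 3762511 to 6781384 miRNA counts and 8235539 to 10694742 clean reads.

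Members were found by the stated rule. The members and all lists were chosen with earlier results of these data known. Named are the 25 members with the highest PL level, those of the keyword groups, the 3 on each side of each limit, and the 10 miRNAs with the most members plus ties, at most 14; a few others (miR-276-y, miR-141-y, miR-13-y, miR-303-y, related genes and members among the partners of a named miRNA) were added after their values were seen. Keywords matched the start or end of a word in the descriptions. The edgeR package 4.0.16 under R 4.3.3 was used for the counts (TMM, filterByExpr, quasi-likelihood test, all 9 libraries in one fit, no covariate, two-sided, Benjamini-Hochberg over 214 miRNAs), calling at adjusted p under 0.05 and over 2-fold. The SE is the absolute log2 value divided by the root of F. The steps were tested on simulated data. FPKM had no replicates and no test. Alternatives were other library sizes, DESeq2 1.42.0, no filter, no fold limit, a replicate block, identical references taken once, each library left out, and other limits of the rule. Tables were handled with Python 3.11.15, pandas 2.3.3 and numpy 2.4.6.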

Additional observations from a re-analysis of the deposited data

How the results depend on the processing

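A lower limit of 20 FPKM in PL gave 87 members in place of 47, and requiring 50% of the PL level left 19 in place of 42 genes on at competence. Only pairs whose miRNA was called covered 31 in place of 47 genes. With total miRNA counts as library size, 10 partners were called lower in PL against CL in place of 16, and 2 higher in place of 1. Leaving out each library in turn gave 22 to 23 partners called lower in PL against Pre-CL, 11 to 17 in PL against CL, and 6 to 10 in CL against Pre-CL. With a replicate block the counts were 23, 15 and 10, and 1 was higher in PL against CL. Whether equal replicate numbers mark paired samples is not stated. Of 9 same-number correlations, 4 were over 0.1 (-0.35 to 0.29), which cannot settle it with 3 libraries per stage. Among single values of the named miRNAs, 444 kept their direction and side of the threshold, 17 lost the call, and 1 changed sign: miR-92-x in CL against Pre-CL, whose values without 1 library were -0.555 to 0.0345. Of the 17 lost calls, 15 were of m0020-5p, the others being m0073-3p without the second CL library and miR-71-x in PL against CL with total counts (-0.95). The causes were not tested. Depth limits the partners with few counts, 10 of which did not pass the count filter of the main test. Without that filter, 26 in place of 23 partners were called lower in PL against Pre-CL.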

Other observations

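Some partner references outside the most frequent ones share sequence with each other, and were picked after their values were seen. miR-3968-y, the only partner of the astacin c156614_g1 and of the thioester protein c153794_g1, and miR-2478-y, the only partner of c144047_g1, are overlapping sequences.
miR-3968-y: cGAATCCCacttctgacacca
miR-2478-y: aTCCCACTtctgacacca
The capitals mark bases 2 to 8. Both end in cca, the bases that close every mature tRNA, and whether their reads come from tRNA was not tested. miR-3968-y had 20.8, 11.4 and 101 CPM in Pre-CL, 9.46, 14.2 and 13.5 CPM in CL, and 3.20, 1.46 and 2.69 CPM in PL. miR-2478-y had 744, 419 and 5043 CPM in Pre-CL, 434, 731 and 687 CPM in CL, and 240, 177 and 183 CPM in PL. The third Pre-CL library stood above the other Pre-CL libraries in both.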
